A study of Mus musculus with 12 samples.

Results

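The 9 genes described here are the 4 Id genes Id1, Id2, Id3 and Id4, the bone morphogenetic protein (BMP) receptor genes Bmpr1a, Bmpr1b and Bmpr2, and the inhibitory Smad genes Smad6 and Smad7. They were taken by name from the 31053 genes of the count table, whatever their values. BMPs are secreted ligands that bring together type I receptors, such as the products of Bmpr1a and Bmpr1b, and type II receptors, such as that of Bmpr2. The activated type I receptor phosphorylates receptor Smads, which enter the nucleus with Smad4 and switch on target genes, the Id genes among the best known of them. Id proteins are helix-loop-helix proteins without a DNA-binding region, and they hold E proteins away from tissue-specific bHLH factors. Smad6 and Smad7 are feedback inhibitors of the pathway. In the forebrain, BMP signalling is known to favour astrocyte over oligodendrocyte formation, and in brain vessels it acts on the endothelium.

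Striatal cells of wild-type mice were enriched with magnetic beads against ACSA2, an astrocyte surface antigen, and sequenced cell by cell from droplets, with a unique molecular identifier (UMI) on each captured RNA molecule. The 12 runs in the labels belonged to 4 libraries, 2 from postnatal pups and 2 from mice aged 3 months (3m), and according to the methods each preparation pooled several animals. The labels gave a mixed strain where the methods named male C57BL/6Jax mice. The titles and the age tags disagreed on which postnatal library was from day 3 and which from day 7, so both were kept as 1 postnatal group, and the spread between them includes any difference between those ages. With 2 libraries per age, p-values measure the spread between these libraries, and nothing in the labels states that they came from separate litters.

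The libraries held 651 to 1449 barcodes, of which 555 to 1120 cells passed the filter, and 6991930 to 11276224 UMIs. A cell was gated into a class when its marker score led the next class by a margin of 0.5, and classes carry the ending "-like" because they rest on marker genes alone. Astroglia-like cells numbered 371 and 521 in postnatal replicates 1 and 2, and 302 and 296 in 3m replicates 1 and 2. All 10 astroglial markers were detected in each library, and their summed level was 8444, 6017, 16308 and 17014 CPM (counts per 1e+06 UMIs) in that order. Genes induced by tissue dissociation, such as Fos, summed to 5908 and 4262 CPM in the postnatal astroglia-like cells against 299.6 and 155 CPM at 3m. Oligodendrocyte markers, in turn, summed to 12.6 and 14.1 CPM postnatally and to 314 and 318 CPM at 3m, with 3 and 7 of the 8 markers and then all 8 detected. Postnatal replicate 2 and 3m replicate 2 shared 95 barcodes, and leaving out the likely copies, 46 cells of 3m replicate 2 among them, changed no call on a gene described here in astroglia-like cells.

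The first comparison asked how the 9 genes differed between the ages in astroglia-like cells. Id1 was lower at 3m, Id4 and Bmpr1b were higher by nearly as much, Bmpr1a and Bmpr2 were moderately lower, and Id2 and Id3 differed more between the postnatal libraries than the test could resolve. Counts were summed per library and tested with edgeR's quasi-likelihood test, and a call needed an adjusted p of at most 0.05 over all 11621 genes tested together with a log2 fold change of 1 or more in either direction. Of the 9 genes, 8 passed the filter on low counts, 1 was called lower and 0 were called higher, where 13.1% and 14.8% of all genes tested were called lower and higher. By adjusted p alone, 5 of the 8 passed, against 40.4% of all genes. The median log2 fold change, 3m over postnatal, was -0.22 over the 8 genes and 0.0018 over all genes tested. Without a scaling factor the median over all genes moved to -0.29, and the share of called genes that were higher went from 53.1% to 34.4%. Id1, Id2, Id3, Id4, Bmpr1a, Bmpr1b and Bmpr2 kept their directions under that setting, and Smad7 did not.

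Among the Id genes, Id1 (GRCm38 chr2:152736251-152737410, plus strand) stood at 254 and 154 CPM in postnatal replicates 1 and 2 and at 76.3 and 80.3 CPM in 3m replicates 1 and 2. Both 3m libraries lay below both postnatal ones. The level fell by 1.09 on the log2 scale (SE 0.27, edgeR adjusted p = 0.0181), a 2.13-fold lower value at 3m. Among cells at or under the overall median of the dissociation genes (110, 62, 289 and 284 cells), Id1 was at 85.7, 29.9, 72.0 and 79.1 CPM, the groups overlapped, and the log2 fold change was 0.72 (adjusted p = 0.176). Without postnatal replicate 1 the log2 fold change was -0.68, and without cells holding an oligodendrocyte marker UMI it was -0.86 with adjusted p = 0.123. Leaving out 3m replicate 1 or 3m replicate 2 gave an adjusted p of 0.144 or 0.142. The part of the dissociation genes in the Id1 difference was not tested beyond this subset.

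Id4 (chr13:48261228-48266026, plus strand) is the family member best known from neural stem cells and astrocytes. It was at 257 and 268 CPM postnatally and at 414 and 421 CPM at 3m, so that the replicates of an age lay close together and the ages did not overlap. The 1.95-fold higher level (log2 fold change 0.96, SE 0.17, edgeR adjusted p = 0.00611) passed the adjusted p and stayed just under the fold threshold. In the cells low for dissociation genes it was 1.04 (adjusted p = 0.0163) and was called.

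Id2 (chr12:25093799-25097140, minus strand), which acts in many lineages including glial precursors, was at 549 and 189 CPM postnatally and at 717 and 687 CPM at 3m. Both 3m libraries were above both postnatal ones, and the postnatal replicates differed from each other by more than the 3m libraries did from postnatal replicate 1. Its log2 fold change of 1.21 (SE 0.47) did not pass at an adjusted p of 0.0802. Leaving out postnatal replicate 2 lowered it to 0.60, and leaving out postnatal replicate 1 raised it to 2.19, which was called. It was also called among cells low for dissociation genes (1.68, adjusted p = 0.00688) and with a replicate block (1.42, adjusted p = 0.0140).

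Id3 (chr4:136143497-136145755, plus strand) was detected at 1458 and 470 CPM postnatally and at 516 and 422 CPM at 3m. Postnatal replicate 1 stood alone, and postnatal replicate 2 lay between the 3m libraries. The log2 fold change was -0.76 (SE 0.50, adjusted p = 0.261), and it turned to 0.29 without postnatal replicate 1 and to -1.40, which was called, without postnatal replicate 2. No direction of Id3 with age in astroglia-like cells could therefore be told from these libraries.

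**Figure D1:**
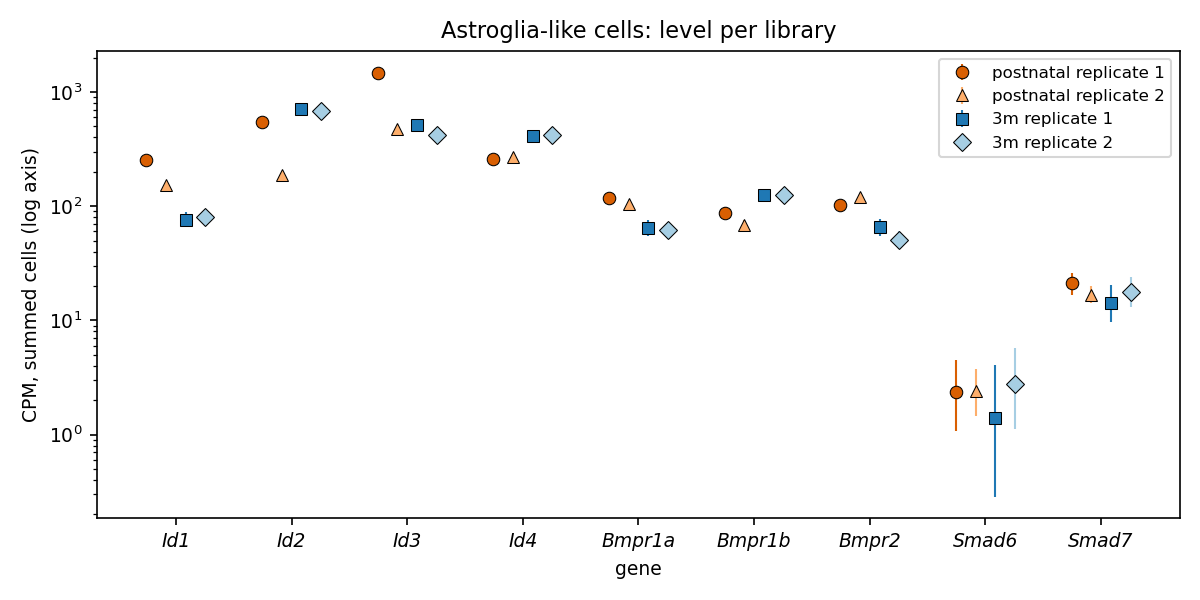
Level of the 9 genes in astroglia-like cells of each library, in CPM on a log axis. The 3m libraries lie below both postnatal libraries for Id1 (76.3 and 80.3 against 254 and 154) and above them for Id4 (414 and 421 against 257 and 268) and Bmpr1b.

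The type I receptor genes went opposite ways, and the type II gene went the way of Bmpr1a. Bmpr1b (chr3:141837136-142169425, minus strand), the type I receptor gene with the more restricted tissue range, was at 87.9 and 69.0 CPM postnatally and at 126 and 125 CPM at 3m. This was a 1.96-fold higher level (log2 fold change 0.97, SE 0.18, adjusted p = 0.00756), again under the fold threshold and without overlap. Bmpr1b reached the fold threshold without postnatal replicate 1 (1.16), at a gate margin of 0.25 (1.00) and in classes from Leiden clusters (1.04). Bmpr1a (chr14:34410734-34503341, minus strand), the type I receptor gene found in most tissues, went the other way, from 118 and 104 CPM to 64.7 and 61.7 CPM (log2 fold change -0.52, SE 0.16, adjusted p = 0.0436). Bmpr2 (chr1:59763400-59879014, plus strand), the type II partner, was at 102 and 120 CPM postnatally and at 65.6 and 50.7 CPM at 3m (log2 fold change -0.64, SE 0.18, adjusted p = 0.0293). None of the 3 reached the fold threshold in these sums. With cells that held an oligodendrocyte marker UMI left out, Bmpr2 was called lower at -1.40. In cells low for dissociation genes Bmpr1a was at 75.2 and 93.3 CPM against 64.9 and 62.2 CPM, with a log2 fold change of -0.16 (adjusted p = 0.591). Without 3m replicate 1 and without 3m replicate 2, 1369 of 12469 and 950 of 12445 genes passed the adjusted p (4268 and 3926 at an unadjusted p under 0.05), and 0 of the 9 and 0 of the 8 Id, receptor and inhibitory Smad genes tested there did. The adjusted p was 0.0787 to 0.0890 for Id4 and Bmpr1b, 0.207 and 0.285 for Bmpr1a and 0.0897 and 0.280 for Bmpr2.

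Of the inhibitory Smads, Smad7, which blocks type I receptors and marks them for degradation, was low in astroglia-like cells, at 21.1 and 16.8 CPM postnatally and 14.3 and 17.8 CPM at 3m. The groups overlapped, and the log2 fold change of 0.07 (SE 0.26, adjusted p = 0.847) changed sign in 5 alternatives. Smad6 (chr9:63953076-64022059, minus strand), the more BMP-selective inhibitor, was counted with 9, 19, 3 and 7 UMIs in the 4 libraries and was not tested. Id4 and Bmpr1a are overlapped by antisense genes, and the sources used here do not state whether antisense reads were counted. Bmpr2 is overlapped by a gene on its own strand, whose reads cannot be told apart from its own.

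Id4 and Bmpr1b were both higher at 3m and followed each other across the 15 sums of at least 20 cells per library and class (Pearson r = 0.88, a description over sums that share libraries). Their upstream sequences are therefore shown, as the 250 bases before an annotated start from RefSeq (GRCm38.p6), with the palindrome GGCGCC, a GC-rich element bound by Smads at BMP targets, in capitals. Bmpr1b has 3 annotated starts, and the windows of 2 of them are given.
Id4, chr13:48260866-48261115, plus strand: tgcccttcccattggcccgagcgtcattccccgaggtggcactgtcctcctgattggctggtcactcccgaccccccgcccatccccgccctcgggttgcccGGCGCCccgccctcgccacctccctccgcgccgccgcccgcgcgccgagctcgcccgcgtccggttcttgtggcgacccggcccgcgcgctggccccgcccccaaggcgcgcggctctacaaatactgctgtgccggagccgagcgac
Bmpr1b, chr3:141982265-141982514, minus strand: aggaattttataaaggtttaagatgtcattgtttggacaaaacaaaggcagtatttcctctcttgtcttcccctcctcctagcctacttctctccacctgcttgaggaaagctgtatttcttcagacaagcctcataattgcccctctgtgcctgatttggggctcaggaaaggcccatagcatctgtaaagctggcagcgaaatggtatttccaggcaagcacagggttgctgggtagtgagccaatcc
Bmpr1b, chr3:141931589-141931838, minus strand: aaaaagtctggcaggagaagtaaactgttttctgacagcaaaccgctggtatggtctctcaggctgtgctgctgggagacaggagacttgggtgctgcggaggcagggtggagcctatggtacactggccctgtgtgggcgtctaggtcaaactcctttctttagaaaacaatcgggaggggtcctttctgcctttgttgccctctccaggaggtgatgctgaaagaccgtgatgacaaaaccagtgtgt
GGCGCC was searched on both strands in the 250 bases before each start of the RefSeq table, and 3149 of 32851 windows (9.59%) held it. The Id4 window held 1, which began 148 bases before the start, and the Bmpr1b windows held none. Windows of Id2, Bmpr1a and Bmpr2 held 1 each, at 231, 198 and 105 bases before the start. The Smad palindrome GTCTAGAC was in 55 windows (0.167%) and in no window of the 7 genes with an entry. Base composition set the windows apart, with 75.6% G or C for Id4 and 46.8%, 52.8% and 56.4% for Bmpr1b. A match of letters is a description and not a bound site.

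The share of cells with a UMI was compared after every cell had been thinned to 2000 UMIs, which left out 63, 25, 30 and 40 shallower cells. Id1 was then found in 27.6% and 11.3% of postnatal astroglia-like cells and in 14.7% and 15.2% at 3m, with exact 95% intervals of 22.7 to 33.0, 8.64 to 14.4, 10.7 to 19.5 and 11.1 to 20.2%. The ages overlapped, with postnatal replicate 2 the lowest of the 4 libraries (exact permutation p = 1, two-sided). Before thinning the shares were 50.1, 39.7, 33.1 and 35.8%. In oligodendrocyte-like cells of the 3m libraries, which should lack the gene, the unthinned share was 0.690% and 1.00% at median depths of 9063.5 and 13201 UMIs, against 5936.5 and 8449 in astroglia-like cells.

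Id2 was found in 54.9, 22.0, 65.1 and 69.1% of thinned astroglia-like cells of the 4 libraries in the same order, and Id4 in 33.4, 41.5, 53.7 and 48.8%. Id3 shares of 63.0, 32.7, 57.7 and 43.8% interleaved. The postnatal shares of Bmpr1a (21.8 and 19.6%) and Bmpr2 (17.9 and 22.0%) lay above those at 3m (12.9 and 12.9%, and 12.5 and 5.86%), and Bmpr1b was found in 16.2 and 11.7% against 24.3 and 16.4%. Smad7 was found in 2.92 and 3.83% postnatally and in 1.47 and 2.73% at 3m. For Id2, Id4, Bmpr1a, Bmpr1b, Bmpr2 and Smad7 the ages did not overlap, and the exact permutation p was 0.333, the smallest that 2 against 2 libraries can give. The nearest libraries of the ages almost met for Bmpr1b (16.2 and 16.4%) and Smad7 (2.92 and 2.73%). Before thinning, the Bmpr1b shares of 46.4, 58.0, 50 and 52.0% overlapped.

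Id1 messages were concentrated in few cells at both ages, most of all in postnatal replicate 2. The 10% of astroglia-like cells with the most Id1 UMIs held 57.3% and 73.6% of all Id1 UMIs in postnatal replicates 1 and 2, against 52.7% and 53.2% at 3m. Such shares also follow depth per cell, for which no adjustment was made. The corresponding shares were 49.5, 65.3, 35.7 and 31.3% for Id2 and 50.3, 62.5, 40.7 and 47.5% for Id3. For Id4 they were 48.4% in postnatal replicate 1 and 33.6 to 34.6% in the other libraries. The 3 genes Id1, Id2 and Id3 were most uneven in postnatal replicate 2, whose Id2 and Id3 levels were also the lower of the postnatal pair.

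Clusters of cells were then used to see where the postnatal spread lay. The 9 genes, the other pathway genes, cycling genes and dissociation genes had been left out of the clustering, and the values are descriptions without a test. The postnatal clusters differed in Id1 and Id4, and less uniformly in Id2 and Id3. In cluster 2, led by Grm5, Ncan and Gfap (159 and 148 cells), Id3 was at 2013 and 905 CPM, Id1 at 326 and 243 CPM and Id2 at 755 and 415 CPM, with Id4 at 172 and 93.8 CPM. Cluster 6, led by Cntnap2 and Pcdh8 (50 and 140 cells), held Id4 at 572 and 542 CPM beside Id1 at 85.7 and 31.9 CPM and Id3 at 412 and 63.1 CPM. In cluster 5, with Adamts18 among its leading genes (39 and 146 cells), the contrast was wider, with Id4 at 523 and 536 CPM and Id1 at 9.76 and 25.7 CPM. Its Id3 level was 70.3 and 65.8 CPM.

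Cluster 7, led by Top2a and histone genes (44 and 77 cells), had Id1 at 270 and 249 CPM, Id2 at 153 and 46.1 CPM, Id3 at 379 and 496 CPM and the lowest Id4 levels of the postnatal clusters named here, at 43.6 and 32.0 CPM. Cluster 6 had Id2 at 151 and 88.6 CPM, near the level of cluster 7 in postnatal replicate 1 and above it in postnatal replicate 2. Cluster 4 (120 and 108 cells with median depths of 1750 and 1254 UMIs) stayed unnamed because it was shallow and no astroglial marker led it, and its Id3 level was 1531 and 923 CPM. Dissociation genes summed to 7194 and 5656 CPM in cluster 2, 3303 and 4662 CPM in cluster 7 and 1155 and 2674 CPM in cluster 4. In the clusters high in Id4 they summed to 5363 and 3172 CPM (cluster 6) and 2720 and 2710 CPM (cluster 5), and their part in the Id levels was not tested. The clusters also took different shares of the 2 postnatal libraries. Cluster 2 held 42.3% and 28.2% of gated astroglia-like cells in postnatal replicates 1 and 2, cluster 4 held 30.2% and 7.49%, cluster 5 held 8.36% and 26.9%, and cluster 6 held 13.5% and 26.9%. Cluster 7 held 5.12% and 10.4%, and only 19 of its 44 and 54 of its 77 cells were gated as astroglia-like.

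At 3m, cluster 1 (248 and 221 cells) held 81.5% and 74.7% of astroglia-like cells, and all 4 Id genes were expressed in it at levels close between the replicates, with Id1 at 72.7 and 77.6 CPM, Id2 at 732 and 681 CPM, Id3 at 529 and 425 CPM and Id4 at 412 and 406 CPM. The smaller cluster 11 (34 and 60 cells, median depths of 1491.5 and 1699 UMIs) had Id2 at 931 and 1059 CPM and Id4 at 548 and 696 CPM.

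**Figure D2:**
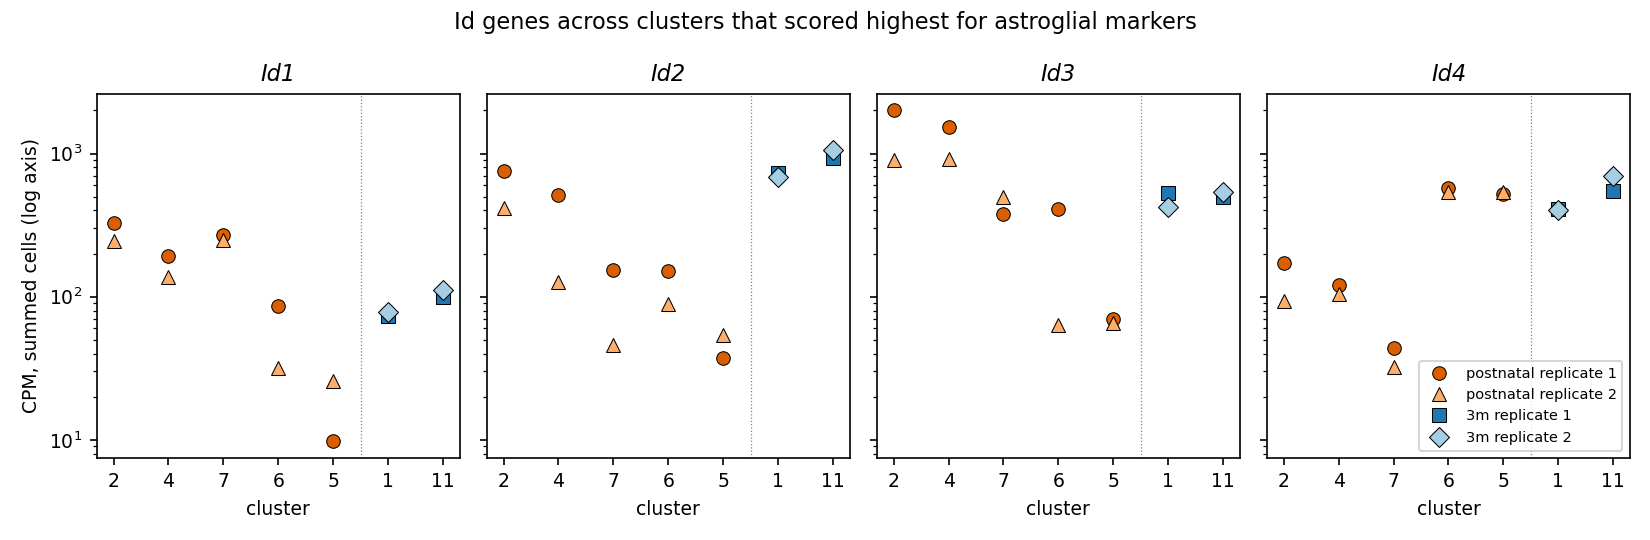
Id gene levels (CPM, log axis) in clusters that scored highest for astroglial markers, per library with at least 20 cells. In postnatal clusters 5 and 6 Id4 was at 523 to 572 CPM while Id1 was at most 85.7 CPM, and in cluster 2 Id3 reached 2013 and 905 CPM.

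Cycling cells, taken as astroglia-like cells with at least 3 UMIs of cycling genes after thinning to 2000 UMIs, were found only postnatally in these libraries (15 and 32 cells, and 0 in both 3m libraries). They carried Id1 at 484 and 314 CPM, above the 237 and 124 CPM of the other cells of the same libraries. Id4 was lower in them, at 87.0 and 34.2 CPM against 269 and 313 CPM. Id3 was at 942 and 642 CPM in cycling and 1497 and 437 CPM in other cells, so its direction differed between the libraries. Leaving the cycling cells out moved the Id1 age difference to -0.91 (adjusted p = 0.0413), under the fold threshold.

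The next comparison set each class against the astroglia-like cells of the same libraries, in a fit of 10519 genes with the library as a block. Oligodendrocyte-like cells, too few to test postnatally, made up 51.8% and 39.3% of cells at 3m. In them 1 of the 9 genes was called higher and 7 lower than in astroglia-like cells, where 15.7% and 23.5% of all genes were. Smad7 was the gene that was higher, at 384 and 395 CPM against 14.3 and 17.8 CPM, a log2 difference of 4.46 (SE 0.21, edgeR adjusted p = 2.82e-16). It was detected in 91.6% and 95.7% of oligodendrocyte-like cells. Id1 was near 0, with 4 UMIs in each library (0.685 and 0.920 CPM, log2 difference -6.68). The log2 difference was -6.45 for Id2, -5.68 for Id3, -5.41 for Id4 and -6.31 for Bmpr1b, all called. Bmpr1a, at 24.1 and 31.0 CPM, was lower (-1.32), or -0.98 and under the fold threshold without 3m replicate 1. Smad6 had 1 UMI in each library, and its call was lost with DESeq2 (adjusted p = 0.0652) and without 3m replicate 1 (adjusted p = 0.197). Bmpr2 stood at 56.5 and 63.9 CPM, a log2 difference of -0.07 (SE 0.15, adjusted p = 0.730).

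Oligodendrocyte precursor-like cells reached the minimum of 20 cells in 1 library per age, postnatal replicate 1 (63 cells) and 3m replicate 1 (45 cells), so the fit took their spread from the other sums. Postnatally 6 of the 9 genes were lower than in astroglia-like cells (10.6% of all genes), and at 3m 5 were lower (12.7%). All 4 Id genes and Bmpr1b were among them at both ages. Id2 was the most retained Id gene at 3m, at 281 CPM and a log2 difference of -2.27 (SE 0.35), and Id1 was down to 1 UMI. Bmpr1a was lower postnatally (62.4 CPM, -1.15), a call lost without a scaling factor (-0.90) and with DESeq2 (adjusted p = 0.0735), and stood at 80.2 CPM at 3m (-0.24, adjusted p = 0.699). The difference between these ages was not tested. DESeq2 did not call Id4 postnatally (adjusted p = 0.362). Smad7, at 20.3 and 46.8 CPM, did not pass at either age.

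Microglia-like cells could be tested in 3m replicate 1 alone (22 cells), again with the spread of the other sums. Of the 9 genes, 1 was higher and 6 were lower, against 9.49% and 12.4% of all genes. Smad7 was again the gene that was higher, at 206 against 14.3 CPM (log2 difference 3.31, SE 0.60, adjusted p = 0.000119), from 24 UMIs. Id1, Id4 and Bmpr1b had 0 UMIs, and at a floor of 3 counts Id4 was at least 16.0-fold lower than in astroglia-like cells, Bmpr1b at least 4.87-fold and Id1 at least 2.96-fold. The Bmpr1a call, from 1 UMI, was lost with RLE size factors, without a scaling factor and with DESeq2 (adjusted p = 0.0583, 0.0701 and 0.207). Gated cells and clusters differed here, since the microglia-like cluster 14 of the same library (31 cells) held 12 UMIs of Id4, 6 of Id1 and 2 of Bmpr1b. In classes from Leiden clusters the log2 difference was -2.81 for Id4, -3.58 for Bmpr1b and -1.42 for Id1, the last no longer called (adjusted p = 0.0701). In 3m replicate 2, which held 7 such cells, Smad7 had 1 UMI.

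Mural-like cells, the pericytes and smooth muscle cells of vessels by their markers, were present in all libraries (21, 31, 59 and 48 cells). Here 5 of the 9 genes were lower than in astroglia-like cells postnatally and 4 at 3m (15.2% and 18.6% of all genes), and 0 were higher. Id3 was the main Id gene of these cells, at 363 and 269 CPM postnatally and 178 and 267 CPM at 3m, with log2 differences of -1.48 and -1.50 from astroglia-like cells at the respective ages. Id2 and Id4 were lower at both ages, Id2 with 0 to 2 UMIs per library. Without postnatal replicate 1 the postnatal difference was -0.81 for Id3, under the fold threshold, and -1.61 for Id1, and without postnatal replicate 2 it was -2.22 and -3.55. Id3 was also not called postnatally in classes from Leiden clusters (-0.85) and at 3m without 3m replicate 1 (adjusted p = 0.0656). Bmpr1b had 0 UMIs in the postnatal sums, at least 13.4-fold lower, and 1 UMI at 3m. Id1 was lower postnatally (-2.24, SE 0.33) and did not pass at 3m (-0.47, adjusted p = 0.284). Bmpr1a and Bmpr2 were within 0.45 on the log2 scale of astroglia-like cells at both ages.

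Endothelial-like cells showed the highest Id1 levels of the classes tested at 3m. All 9 genes differed from astroglia-like cells there, 5 higher and 4 lower, where 19.9% and 21.9% of all genes were called. Id1 was at 1524 and 1158 CPM (42 and 38 cells), a log2 difference of 3.69 (SE 0.22, edgeR adjusted p = 8.40e-14). Bmpr2 at 603 and 586 CPM was higher by 2.97 (SE 0.16), Smad7 at 266 and 102 CPM by 3.14 (SE 0.32), Smad6 by 3.37 (SE 0.86, 7 and 11 UMIs) and Id3 by 1.38 (SE 0.24). Without 3m replicate 1 the difference was 2.15 for Smad7 and -1.96 for Bmpr1a, and without 3m replicate 2 it was 3.85 and -3.28. The Smad6 call was lost without 3m replicate 1 (adjusted p = 0.0681). The genes that were lower were Id2 (-3.01), Bmpr1a (-2.56), Bmpr1b and Id4. With 0 UMIs among 646651, Id4 was at least 90.1-fold and Bmpr1b at least 27.0-fold lower. Bmpr1a was down to 3 and 6 UMIs. Acvrl1, the endothelial type I receptor gene, stood at 306 and 395 CPM in it.

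**Figure D3:**
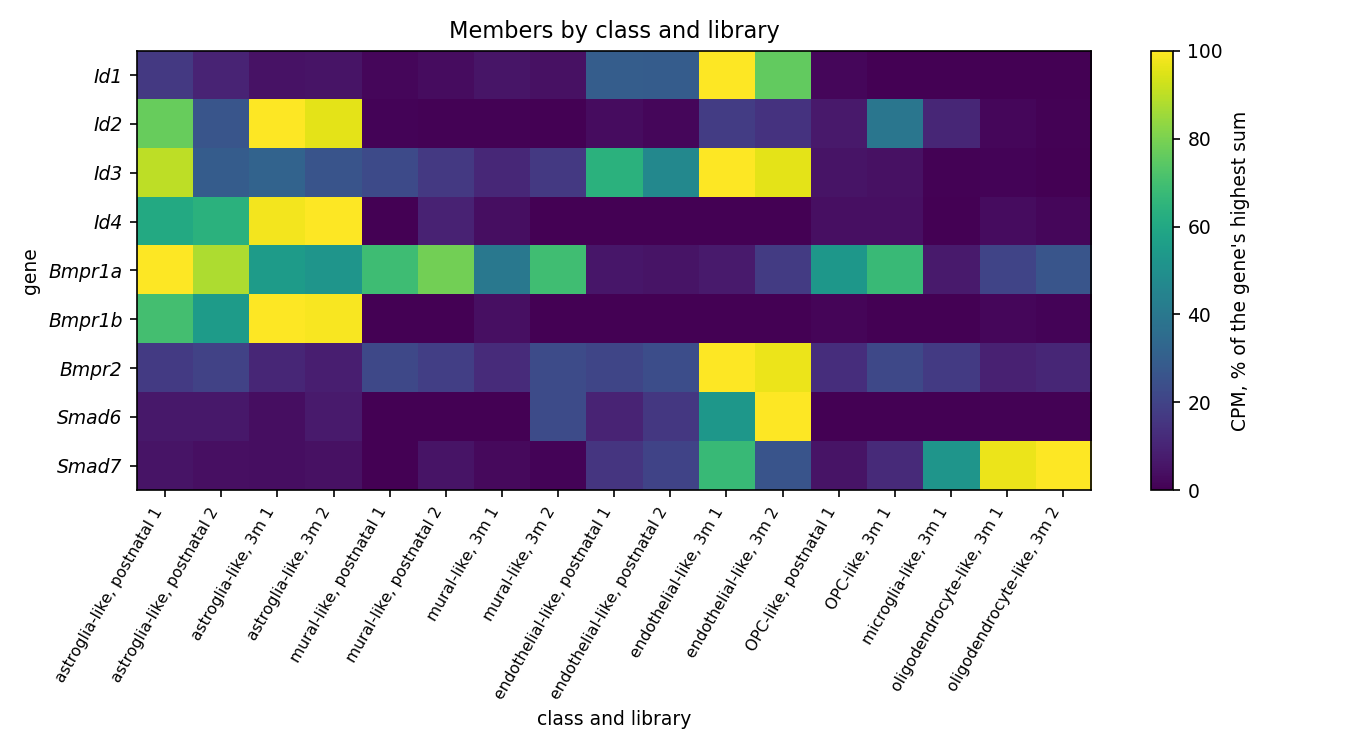
Level of each gene in the tested sums of class and library, in CPM as a percent of that gene's highest sum. Tested differences are not drawn. Against astroglia-like cells at 3m, Smad7 was higher in oligodendrocyte-like cells (log2 difference 4.46). Id1, Id3, Bmpr2, Smad6 and Smad7 were higher in endothelial-like cells at 3m.

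Postnatal libraries held only 17 and 13 endothelial-like cells. Their sums were tested at a minimum of 10 cells, a choice made after the cell counts had been seen. In that fit of 11316 genes, 2 of the 9 genes were higher than in astroglia-like cells and 4 lower (16.4% and 22.1% of all genes). Id1 at 452 and 444 CPM was higher by 1.27 (SE 0.19, adjusted p = 1.17e-06), or by 0.89 and no longer called without postnatal replicate 2, and Smad7 at 61.1 and 78.8 CPM by 2.01 (SE 0.29). Id2, Bmpr1a, Id4 and Bmpr1b were lower, the last with 0 UMIs in both libraries and at least 41.1-fold. Id3 (0.15, adjusted p = 0.615), Bmpr2 (0.38, adjusted p = 0.105) and Smad6 (1.12, adjusted p = 0.327) did not pass.

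Age was then compared within the vascular classes. In endothelial-like cells, with the same added minimum of 10 cells, 5 of the 6 genes that passed the filter were called higher at 3m, against 11.1% of the 7066 genes tested, and the median log2 fold change was 1.71 over the 6 genes and 0.0017 over all genes. Smad6 and Id2 were low in the postnatal sums and passed the filter through their 3m levels. The count of 5 and the median are therefore descriptions and no test of direction. Bmpr2 went from 126 and 143 to 603 and 586 CPM, and rose by 1.99 on the log2 scale (SE 0.17, edgeR adjusted p = 8.19e-06). Id1 rose from 452 and 444 to 1524 and 1158 CPM (1.43, SE 0.17, adjusted p = 9.44e-05). Id2, low in these cells, rose from 23.2 and 13.3 to 127 and 106 CPM (2.52, SE 0.33, adjusted p = 0.000183). None of these ranges overlapped.

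Smad6 had a log2 fold change of 2.32 (SE 0.56) on counts of 3, 5, 7 and 11 UMIs. It passed the filter only through its 3m sums, so this value is a description. Smad7 rose by 1.27 (SE 0.35), from 61.1 and 78.8 to 266 and 102 CPM. Id3 stood at 1035 and 755 CPM postnatally and at 1621 and 1556 CPM at 3m, and its log2 fold change of 0.68 (SE 0.17, adjusted p = 0.0114) missed the fold threshold. Without 3m replicate 1 the Smad7 value was 0.38 (adjusted p = 0.567). The Smad6 call was lost when any 1 of the 4 libraries was left out (adjusted p = 0.187 to 0.254). Both inhibitory Smads lost their call with DESeq2 and without the filter on low counts. When either 3m library was left out, 0 genes were called by edgeR, with 1605 or 1833 genes at an unadjusted p under 0.05.

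These endothelial-like sets differed in more than age. Median depth was 41855 and 39553 UMIs per cell postnatally and 6497.5 and 5664 at 3m. The postnatal cells lay in cluster 13 (16 of 17 and 13 of 13), which stayed unnamed because erythroid genes were among its leaders, and most 3m cells in cluster 10 (42 of 42 and 33 of 38). All 8 endothelial markers were detected in every library, at a summed 6781 and 6415 CPM postnatally and 15922 and 19797 CPM at 3m, and none was among the 10 leading genes of the postnatal set. Mural markers summed to 1921 and 2102 CPM against 5802 and 5697 CPM, and dissociation genes to 1831 and 1999 CPM against 3224 and 2625 CPM. Oligodendrocyte markers summed to 7.3 and 2.4 CPM against 167 and 252 CPM, and erythroid markers to 40.4 and 148 CPM against 603 and 10.2 CPM. The part of these differences in the age comparison was not tested. By cluster number, Id1 was at 488 and 432 CPM in the postnatal cells of cluster 13 and at 1296 and 1096 CPM in the 3m cells of cluster 10, and Bmpr2 at 131 and 147 against 524 and 533 CPM.

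In mural-like cells, 4 genes (Id1, Id3, Bmpr1a and Bmpr2) passed the filter and 0 were called by edgeR or DESeq2, 0 of them at an unadjusted p under 0.05, against 12.1% of the 4075 genes tested in either direction. Id1 was at 25.02 and 50.6 CPM postnatally and at 89.2 and 69.0 CPM at 3m, from 4 to 19 UMIs per library. The ages did not overlap, and the log2 fold change of 0.94 (SE 0.44) had an adjusted p of 0.186. The mural-like sets of the ages lay in different clusters, cluster 15 postnatally (19 of 21 and 29 of 31 cells) and cluster 9 at 3m (58 of 59 and 46 of 48 cells). Mural markers summed to 21362 and 19799 CPM postnatally and 39969 and 42612 CPM at 3m, fibroblast markers to 525 and 823 against 173 and 186 CPM, and neuron markers to 751 and 1185 against 126 and 104 CPM. Oligodendrocyte markers were higher at 3m (12.5 and 7.99 against 262 and 280 CPM), and so were ependymal markers (388 and 301 against 913 and 1087 CPM). Median depth was 7476 and 10980 UMIs per cell postnatally and 2988 and 4297 at 3m, and the part of these differences was not tested.

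**Figure D4:**
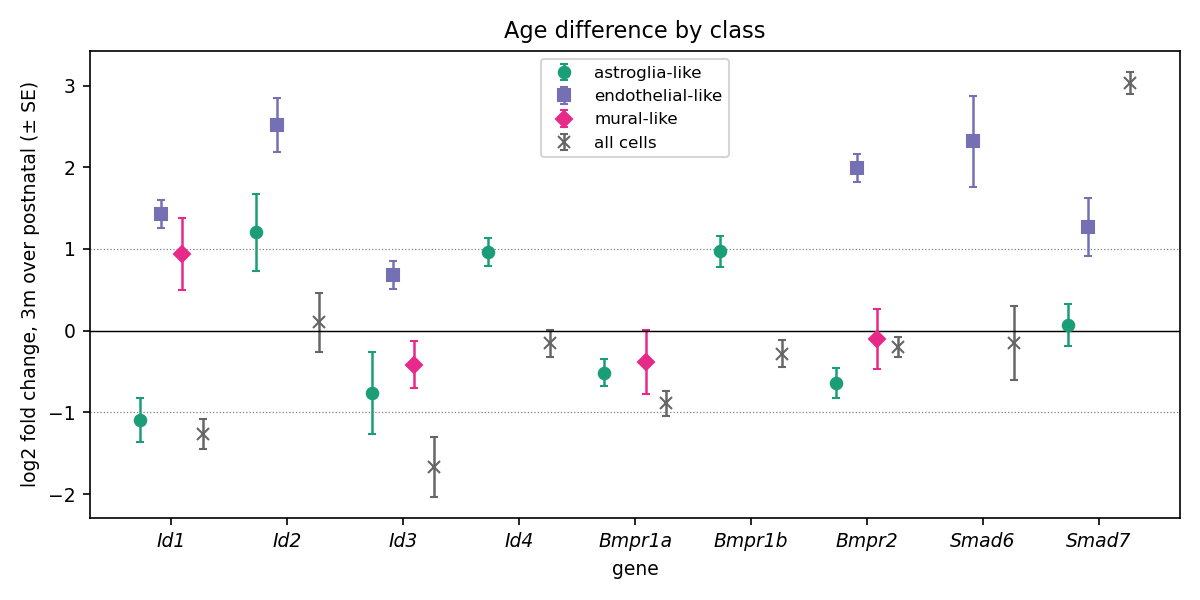
Log2 fold change, 3m over postnatal, of each tested gene in astroglia-like, endothelial-like, mural-like and all filtered cells, with bars of 1 SE. Id1 lies at -1.09 in astroglia-like and at 1.43 in endothelial-like cells.

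Whether the age differences themselves differed between classes was tested as a contrast in the fit over library and class. Against astroglia-like cells, 3 of the 9 genes had a higher age difference in endothelial-like cells (6.42% of all genes), with the minimum of 10 cells. The difference was 2.58 for Bmpr2 (SE 0.28, adjusted p = 1.73e-08), 2.41 for Id1 (SE 0.28, adjusted p = 9.07e-08) and 1.21 for Id3 (SE 0.33, adjusted p = 0.0107). In mural-like cells 1 of the 9 genes, Id1, had a higher age difference (3.15% of all genes), by 1.77 (SE 0.50, adjusted p = 0.0268), between mural-like sets from clusters 15 and 9. Without postnatal replicate 1 the Id3 difference in endothelial-like cells was 0.45, under the fold threshold, and the Id1 difference in mural-like cells was 1.22. Without postnatal replicate 2 they were 1.81 and 3.14. Neither of these 2 differences was called with DESeq2 or without the block.

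Sums over all filtered cells, the nearest to a bulk measurement, combined these patterns with the different makeup of the libraries. In such sums fewer cells of a type and less RNA per cell cannot be told apart. Of 14288 genes tested, 15.7% were called higher and 13.3% lower at 3m, and of the 9 genes 1 was higher and 2 were lower. Smad7 rose from 35.0 and 30.3 to 252 and 229 CPM, by 3.03 on the log2 scale (SE 0.13, adjusted p = 0.000139). Oligodendrocyte-like cells contributed 90.9% and 94.2% of the Smad7 UMIs of the 3m libraries, and astroglia-like cells 1.26% and 2.47%.

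Id1 fell by 1.27 (SE 0.18, adjusted p = 0.00416), from 268 and 191 to 90.1 and 81.4 CPM. Astroglia-like cells gave 51.5% and 56.5% of Id1 UMIs postnatally and 18.7% and 31.3% at 3m, where endothelial-like cells gave 60.9% and 52.5%. Id3 fell by 1.67 (SE 0.36, adjusted p = 0.0151), from 1056 and 479 to 218 and 216 CPM, with 75.0, 68.8, 52.3 and 62.0% of its UMIs from astroglia-like cells. Without postnatal replicate 1 it was -1.02. The Id3 call was lost without 3m replicate 1 (adjusted p = 0.0810) or 3m replicate 2 (0.0749). Bmpr2 did not pass (-0.20, adjusted p = 0.240), and its source moved from astroglia-like cells (55.6% and 72.5%) to 16.8% and 19.4% at 3m, with 39.0% and 42.1% from oligodendrocyte-like and 25.2% and 26.0% from endothelial-like cells. Id2, Id4 and Bmpr1b came mostly from astroglia-like cells, which gave 70.5% to 98.2% of their UMIs in every library.

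**Figure D5:**
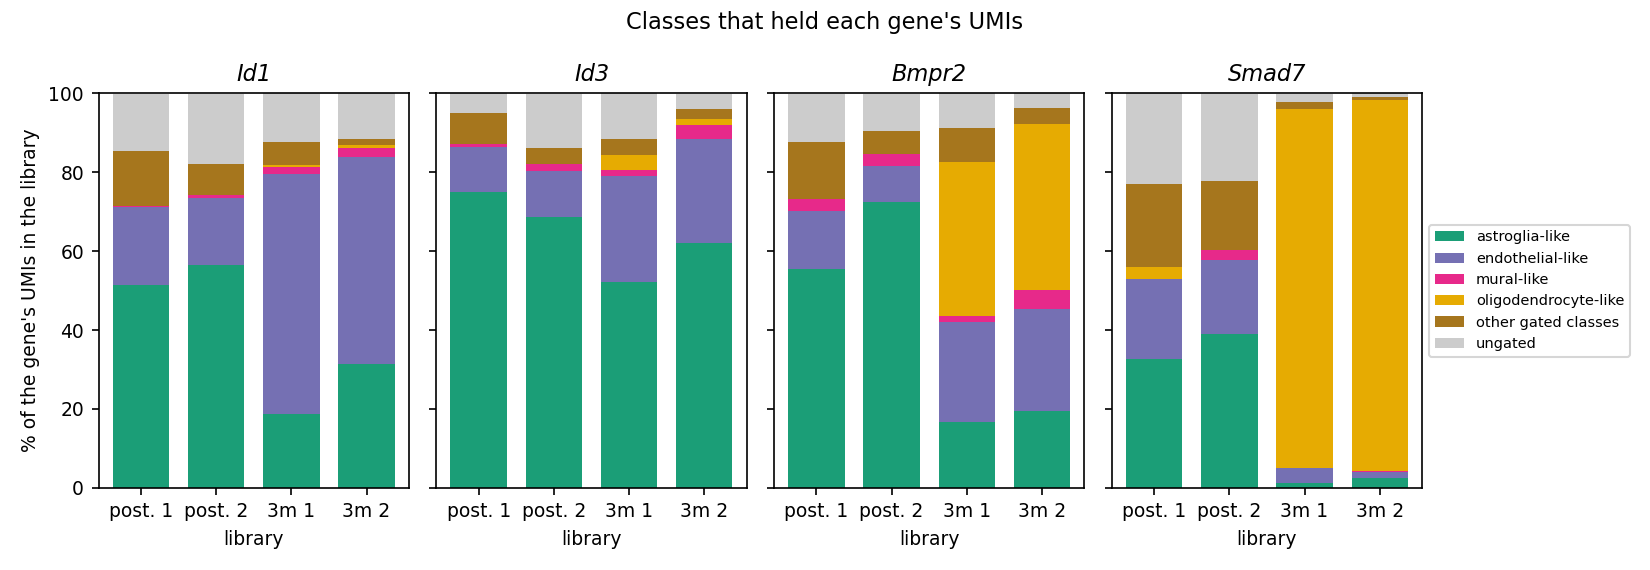
Share of the UMIs of Id1, Id3, Bmpr2 and Smad7 by class and library, as a percent of the gene's UMIs in all filtered cells. Astroglia-, endothelial-, mural- and oligodendrocyte-like cells are drawn singly, and the other gated classes together. Smad7 at 3m comes from oligodendrocyte-like cells (90.9% and 94.2%), and Id1 at 3m mainly from endothelial-like cells (60.9% and 52.5%).

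The rest of the pathway was followed through 51 further genes. In astroglia-like cells 33 of them were tested, 2 were higher and 9 lower at 3m, against 14.8% and 13.1% of all genes tested, and the median log2 fold change was -0.37 against 0.0018. Among 11 ligand genes only Bmp7 was expressed enough to be tested, at 15.3, 18.0, 19.0 and 18.2 CPM (0.45, adjusted p = 0.154). Of the 4 receptor Smad and co-Smad genes, all tested, Smad5 fell by 1.49 (SE 0.39), and the shared partner Smad4 was at -0.74 (adjusted p = 0.0151), under the fold threshold. Smad9, at 4.74 and 1.39 CPM postnatally and 7.86 and 5.94 CPM at 3m, had the opposite sign and did not pass (1.60, SE 0.63, adjusted p = 0.0832). The receptor gene Acvr2b fell by 1.04 (SE 0.32).

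Of 12 genes for extracellular inhibitors 8 were tested, and Chrdl1, a ligand trap of the chordin family, was the only one that rose, from 24.5 and 19.2 to 79.5 and 110 CPM (2.43, SE 0.23). Fstl1 and Bmper fell by 1.12 and 1.14, and Fst, the follistatin gene, fell from 12.4 and 7.09 CPM to 0 in both 3m libraries. Skil, a repressor of Smad complexes, fell by 2.22 (SE 0.30). Msx1, a homeobox target gene, rose from 4.21 and 1.65 to 16.2 and 22.2 CPM (3.13, SE 0.48). Among partners of Id proteins, the E protein gene Tcf3 fell by 1.21 (SE 0.19), whereas Tcf4 (0.51, adjusted p = 0.0951) and Tcf12 (-0.70, adjusted p = 0.0738) did not pass. The bHLH genes Olig1 and Olig2 fell by 1.94 and 2.66. Oligodendrocyte precursor markers in the same sums stood at 125 and 260 CPM postnatally and at 69.8 and 62.9 CPM at 3m, and their part in these changes was not tested.

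In endothelial-like cells 25 of the 51 genes were tested, 6 were higher and 3 lower at 3m, against 11.1% and 9.33% of all genes. Acvrl1 rose by 1.87 (SE 0.20), while the pseudoreceptor gene Bambi fell by 2.27 (SE 0.34). Msx1 stood at 1.22 and 1.21 CPM postnatally and at 31.2 and 23.8 CPM at 3m (4.14, SE 0.63). It passed the filter through its 3m sums, so this value is a description. In mural-like cells 15 were tested, 4 were higher and 1 lower, against 6.85% and 5.30% of all genes, and the ligand gene Bmp4 rose from 6.26 and 2.66 to 57.7 and 82.0 CPM (4.10, SE 0.68, adjusted p = 0.00181). The postnatal levels of Bmp4 rest on 1 UMI per library. It passed the filter through its 3m sums, so the size of the change is a description. That change lies between the sets from clusters 15 and 9. Their fibroblast and neuron marker sums were lower and their oligodendrocyte and ependymal marker sums higher at 3m, and the part of these in it was not tested.

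Likeness was measured as Pearson's r of log2(CPM + 1) over the 15 sums of library and class, among 7375 genes, as a description over sums that share libraries and depth. Within the 9 genes, Id1 and Id3 were most alike (r = 0.95) and Bmpr1a and Smad7 ran opposite (r = -0.73). The genes nearest to Id1 were Fzd4, Rgs12 and Wwtr1 (r = 0.92 to 0.93), and Wwtr1 was also nearest to Id3 (0.94). Id4 was nearest to Acsl6 (0.96), Lhx2 and Mt3, Id2 to Fibp (0.89), Bmpr1a to Dlg4 (0.94), and Bmpr1b to Gm13111 (0.97). Bmpr2 was nearest to the endothelial marker Itm2a (0.95), Smad6 to Sema3c (0.93) and Smad7 to Pithd1 (0.92).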

How the data were processed

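The authors deposited a table of UMI counts by gene and barcode, not normalised, and the labels name mm10, Cell Ranger and Seurat 3.1.1. Runs of 1 library were already merged, so the library was the replicate. The genes, pathway lists and tests were chosen with earlier results of these data known. Genes named are the 9 members in every class, and pathway genes called with age in astroglia-like cells or among the 3 of their list with the largest absolute log2 fold change.

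Cells with over 10% mitochondrial UMIs or under 500 genes were removed, as in the study. Classes were gated on marker scores per cell (margin 0.5, at least 3 markers), and 96 cells lay within 0.1 of the margin. Clusters came from Scanpy 1.11.5 and leidenalg 0.10.2 (2000 variable genes, 30 components, 20 neighbours, resolution 0.6). Scrublet doublets (2 to 26 per library) were kept and left out in an alternative. CPM is a count per 1e+06 UMIs of a sum. Sums of at least 20 cells were tested with edgeR 4.0.16 in R 4.3.3 (TMM, filterByExpr, quasi-likelihood, Benjamini-Hochberg), after a test on simulated data, and DESeq2 1.42.0 was an alternative. Intervals are exact at 95%, a count of 0 was set to 3 counts over the group for bounds, and both cover counting error only. The other classes, whose sums were under 20 cells, were not tested.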

Additional observations from a re-analysis of the deposited data

Results flagged for a closer look

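Age differences of 3 genes differed between classes in the test of the difference itself, with the library as a block. Against astroglia-like cells the log2 age difference of endothelial-like cells was higher by 2.58 for Bmpr2, by 2.41 for Id1 and by 1.21 for Id3, in sums of at least 10 cells, a minimum chosen after the cell counts had been seen. The Id3 difference was not called with DESeq2 (1.17, adjusted p = 0.230), without the block (1.39, adjusted p = 0.126), without postnatal replicate 1 (0.45) or without 3m replicate 2 (1.03). In mural-like cells the Id1 difference was 1.77, and it was not called with DESeq2 (1.91, adjusted p = 0.0735), without the block (1.92, adjusted p = 0.0625), without postnatal replicate 1 (1.22) or without 3m replicate 1 (1.61). Depth per cell and summed mural markers differed between the endothelial-like sets of the 2 ages, and the mural-like sets lay in different clusters at each age. Dissociation genes summed to 5908 and 4262 CPM postnatally and 299.6 and 155 CPM at 3m in astroglia-like cells, and to 1831 and 1999 against 3224 and 2625 CPM in endothelial-like cells. In astroglia-like cells at or under the median of these genes the Id1 age difference was 0.72 (adjusted p = 0.176), against -1.09 in all of them. The part of these values in the differences between classes was not tested.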

How the results depend on the processing

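Astroglia-like cells were the best sampled class, and still 2 libraries per age, 7 or fewer UMIs of Smad6 at 3m and 13 to 31 vascular cells in postnatal sums limit what could be seen. Across the alternatives, 273 summary values stayed the same, 22 moved by more than their limit and 10 changed sign, and for single genes 1244 values stayed the same, 24 moved, 14 changed sign, 20 gained a call and 46 lost it. Scaling by RLE reversed none of the age differences in astroglia-like cells; without a scaling factor the share of called genes that were higher was 83.7% (54.0% with it) for the endothelial-like age difference, 76.7% (47.0%) for the mural-like one, 78.6% (47.4%) and 59.0% (45.8%) for precursor-like cells at 3m and postnatally, 62.3% (43.9%) for mural-like, 61.6% (47.7%) for endothelial-like and 54.0% (43.4%) for microglia-like cells at 3m, and 66.5% (54.3%) for age in endothelial-like cells. The causes of the changes below were not tested.

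In astroglia-like cells 3249 genes were called, 2079 without cells holding an oligodendrocyte marker UMI, and 950 to 4134 with 1 library left out. In mural-like cells the 495 called genes became 805 without the low-count filter and 181 with DESeq2; in endothelial-like cells the 1441 became 609 and 892, and 0 to 1371 with 1 library left out. DESeq2 called 1164 genes in postnatal precursor-like cells. With 1 library left out, 2269 to 3466 genes were called for mural-like cells at 3m, 279 to 823 for the mural-like age difference (404 without the replicate block) and 747 to 1361 for the endothelial-like one (2125 without a scaling factor).

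Reversed log2 fold changes in astroglia-like cells were 0.72 for Id1 in cells low for dissociation genes, and for Smad7 -0.22 without a scaling factor, -0.11 at a gate margin of 1 and -0.53 without cells holding an oligodendrocyte marker UMI. With 1 library left out, Id3 ran from -1.40 to 0.29 and Smad7 from -0.14 to 0.24. Over all filtered cells Id2 was at -0.052 without a scaling factor and ran from -0.36 to 0.75 with 1 library left out, Id4 from -0.35 to 0.036 and Smad6 from -0.69 to 0.27. In mural-like cells Bmpr2 was at 0.092 at a gate margin of 0.25 and ran from -0.65 to 0.26.

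The difference in thinned share (3m minus postnatal, percentage points) ran with 1 library left out from -12.6 to 3.68 for Id1, from -12.3 to 18.1 for Id3 and from -0.819 to 0.0660 for Smad6. For Id3 it was -7.23 at 1000 UMIs and -11.8 for at least 2 UMIs per cell. At that last setting Bmpr2 was at -0.654, Smad6 at 0 and Smad7 at -0.325. Without thinning Bmpr1b was at -1.15 and Smad6 at -1.53, and Smad7 was at -0.316 at 1000 UMIs and 0.560 at 4000.

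A replicate block gave 3314 called genes for astroglia-like cells, with Id2 among them (1.42). Replicate numbers only name the libraries. Deviations of replicate 1 from replicate 2 correlated between the ages at 0.049 over 6378 genes in astroglia-like cells and at 0.258 over 6911 genes in all cells. Classes from Leiden clusters gave no postnatal endothelial-like sums, and a gate margin of 1 left no endothelial-like sum of 10 cells, so neither has a value for that comparison.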

Other observations

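Ependymal-like cells, too few for a test (14 and 9 cells at 3m), held Id4 at 678 and 733 CPM, from 175 and 102 UMIs, and Id4 was found in each of these cells. Id1 had 0 and 1 UMIs and Id3 3 and 0 UMIs in the same cells. Fibroblast-like cells of the 3m libraries (7 and 9 cells) showed the other combination, with Id3 at 553 and 707 CPM and 0 UMIs of Id2 and Id4.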
